A study of Mus musculus with 3 samples.

Results

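The cells described here were the CD8 T cells found by their transcripts among live CD45+ leukocytes sorted from the mouse pancreas. A cell barcode was kept when it held at least 1000 unique molecular identifiers (UMIs, each standing for 1 captured transcript) and at most 30% mitochondrial UMIs. A kept barcode was a member when it held at least 2 UMIs of Cd8a and Cd8b1 together and at least 2 of Cd3e, Cd3d and Cd3g together, and none of Cd4, Foxp3, Cd79a, Csf1r or Siglech. This rule found 457 cells among 14302 kept barcodes. Since the members were chosen by these 10 genes, the levels of the 10 genes are given only as a description.

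Mice received a single intraperitoneal injection of whole beta-glucan particles from yeast (WGP) or of the vehicle PBS, and their pancreata were taken 3 days (3-day WGP) or 7 days (7-day WGP) after WGP. The methods of the study describe wild-type C57BL/6J mice of both sexes, used as young adults, without further genetic change. The labels give neither the sex nor the number of the animals behind a library. Each group was 1 library of the 10x Genomics 3' chemistry, so no difference between groups could be tested, and all intervals given here cover counting error only. Both WGP libraries were set against the same PBS library.

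CD8 T cells recognise peptides on MHC class I molecules through the T cell receptor, with the CD8 coreceptor binding the same MHC molecule. The coreceptor is a pair of chains, usually CD8 alpha with CD8 beta, encoded by Cd8a and Cd8b1. Naive CD8 T cells circulate through lymph nodes, and effector and memory cells carry granzymes and perforin, release interferon gamma and chemokines, and can stay in tissue.

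The share of CD8 T cells among kept barcodes was 1.75% in PBS (92 of 5249, exact binomial 95% interval 1.42 to 2.15%). It was 3.46% in 3-day WGP (169 of 4879, 2.97 to 4.02%) and 4.70% in 7-day WGP (196 of 4174, 4.07 to 5.38%). The 3 intervals did not overlap. When a Cd8b1 UMI was also required, the share was 3.40% at 3 days (2.91 to 3.95%) and 3.81% at 7 days (3.25 to 4.44%), and these intervals overlapped. Conventional CD4 T cells were gated by Cd4 detected with any UMI, at least 2 Cd3 UMIs, and Cd8a, Cd8b1, Foxp3, Cd79a, Csf1r and Siglech at 0. They numbered 138, 149 and 144 in the same order, and the ratio of CD8 to CD4 T cells was 0.667, 1.13 and 1.36. CD8 members needed at least 2 UMIs of Cd8a and Cd8b1 together, so the gates were not equal and the ratio depends on them. These are shares of a sorted suspension, so the numbers of other leukocytes enter them too. B cells (at least 2 Cd79a UMIs and no Cd3 UMI) numbered 1965, 1140 and 597. NK cells (at least 2 UMIs of Ncr1 and Klrb1c together, and no Cd3, Cd79a, Csf1r or Siglech UMI) numbered 104, 333 and 309.

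**Figure D1:**
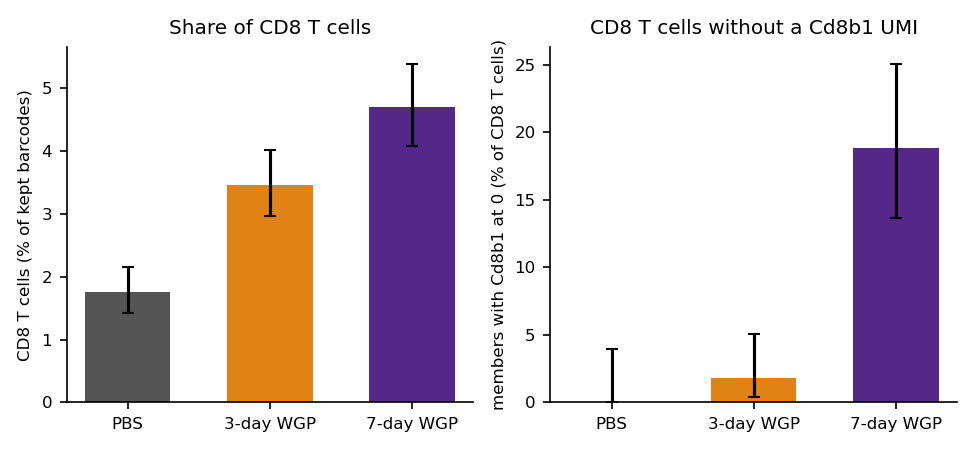
CD8 T cells as a percentage of kept barcodes (left) and members with no Cd8b1 UMI as a percentage of CD8 T cells (right), in 1 library each of PBS, 3-day WGP and 7-day WGP. Bars are shares and whiskers exact binomial 95% intervals, and both shares were highest in 7-day WGP (4.70% and 18.9%).

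The members carried the transcripts of T cells that the rule had not used. A UMI of Trac, Trbc1 or Trbc2, the constant regions of the alpha and beta receptor chains, was present in 98.9% of PBS members and in all members of both WGP libraries. Transcripts of Trdc, the delta chain, were seen in 4, 7 and 8 members, and Klrb1c or Ncr1, markers of natural killer (NK) cells, in 3, 8 and 14. Cd40lg, a ligand typical of helper T cells, was seen in 1, 3 and 3. Cd8a (chromosome 6, 71373427 to 71379173) stood at 417 CPM (UMIs of the gene for every 1000000 summed UMIs) in PBS, 504 at 3 days and 500.1 at 7 days. Its neighbour Cd8b1 (chromosome 6, 71322788 to 71337494) stood at 979.7, 1040.4 and 704 CPM, lowest at 7 days. Coordinates are of the mouse build GRCm38 (mm10).

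Depth differed between the libraries. The median member held 4971 UMIs in PBS, 6714 at 3 days and 7819.5 at 7 days, and the summed members 552184, 1233222 and 1757554. No barcode was shared between members of different libraries, although 9, 1 and 5 kept barcodes were shared between pairs of libraries. Close to the threshold, 11, 8 and 17 members had exactly 2 UMIs of Cd8a and Cd8b1, with Nkg7 at 696, 972 and 894 CPM. The 21, 24 and 24 barcodes with 1 such UMI that met the rest of the rule had Nkg7 at 941, 557 and 1124 CPM. The rule also left out 72, 100 and 28 barcodes that met the rest of it but held a Cd79a, Csf1r or Siglech UMI. Their median depth was 12334, 25739 and 19670 UMIs, and Cd74 stood at 4576, 3632 and 4239 CPM. The shares of CD8 T cells given above do not count them and depend on this choice. A few members also held transcripts of other lineages. Members with at least 10 UMIs summed over Cst3, Cd74, H2-Aa, H2-Ab1, H2-Eb1, Lyz2, S100a8, S100a9, C1qa and C1qb numbered 3 in PBS, 13 at 3 days and 9 at 7 days. They held 88.4%, 96.2% and 61.8% of all UMIs of these genes in the members, and their median depth (15059, 11190 and 21469 UMIs) was above that of the other members (4633, 6511 and 7560). They are called mixed-lineage members below. No doublet caller was run.

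The genes ranked here had a counting interval that excluded equality, and sex-linked, immunoglobulin, haemoglobin, acinar and rule genes were left out. Of the genes ranked, 3 chemokine and cytokine genes stood furthest above PBS in 7-day WGP by the rule of size used here. Their promoter windows are shown because these genes lead the ranking. Without the richest cell of each library Ifng was at 1.95 (log2), below Klra7 (2.70), Fcer1g (2.14), Serpina3g (1.99) and Ikzf2 (1.96). Xcl1 encodes a chemokine that attracts cross-presenting dendritic cells, Cxcl10 a ligand of the receptor CXCR3, and Ifng interferon gamma. Each window runs 5' to 3' on the strand of its gene and holds 300 bases around the RefSeq start: Xcl1 at chr1:164935473-164935772 (minus strand), Cxcl10 at chr5:92348840-92349139 (minus strand) and Ifng at chr10:118440796-118441095 (plus strand), all from the RefSeq table for GRCm38.p6. Capitals mark matches on either strand to 5 motifs: AP-1 (TGANTCA), RUNX (TGTGGT), a T-box core (GGTGTGA), GAS (TTCNNNGAA) and ISRE, a pair of GAAA with NN between them.
Xcl1: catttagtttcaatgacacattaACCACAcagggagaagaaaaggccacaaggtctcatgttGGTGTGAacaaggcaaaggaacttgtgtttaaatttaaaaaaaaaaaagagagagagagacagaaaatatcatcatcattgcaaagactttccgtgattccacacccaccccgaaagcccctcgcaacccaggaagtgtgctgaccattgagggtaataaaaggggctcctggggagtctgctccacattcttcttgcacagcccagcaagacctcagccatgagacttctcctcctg
Cxcl10: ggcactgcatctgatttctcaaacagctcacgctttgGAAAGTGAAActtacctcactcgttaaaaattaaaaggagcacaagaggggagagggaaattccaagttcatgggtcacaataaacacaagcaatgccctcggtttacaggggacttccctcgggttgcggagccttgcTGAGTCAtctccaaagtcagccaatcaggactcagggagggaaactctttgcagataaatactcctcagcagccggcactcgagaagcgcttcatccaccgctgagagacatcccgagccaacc
Ifng: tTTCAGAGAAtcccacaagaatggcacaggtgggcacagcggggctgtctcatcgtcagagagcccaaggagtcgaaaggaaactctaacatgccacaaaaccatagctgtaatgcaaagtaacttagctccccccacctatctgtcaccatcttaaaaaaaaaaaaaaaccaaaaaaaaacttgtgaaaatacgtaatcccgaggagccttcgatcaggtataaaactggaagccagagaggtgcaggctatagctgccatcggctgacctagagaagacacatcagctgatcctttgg
The Xcl1 window held a RUNX match on the opposite strand (bases 24 to 29) and a T-box core match (bases 63 to 69). The Cxcl10 window held an ISRE match (bases 38 to 47) and an AP-1 match (bases 177 to 183), and the Ifng window a GAS match (bases 2 to 10). No matches overlapped. Among all 32851 promoter windows of the table, 16.8% held the RUNX letters, 3.98% the T-box core, 3.44% the ISRE, 7.81% the AP-1 letters and 8.30% the GAS letters. A match is only a match of letters.

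With 1 library per group, a gene was counted as higher or lower when log2 of the ratio of CPM, with 20 CPM added to both sides, was at least 1 either way. The 3939 genes averaging at least 30 CPM over the libraries were compared. In 7-day WGP against PBS, 42 genes (1.07%) were at least 2-fold higher and 12 (0.305%) at least 2-fold lower. The median over all of these genes was 0.03 (log2).

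Xcl1 (chromosome 1, 164931644 to 164935527) stood at 63.4 CPM in PBS (44.1 to 88.2), 126 at 3 days (107 to 148) and 895 at 7 days (851 to 940). The 7-day library was far above the other two, and the log2 difference from PBS was 3.46. Xcl1 was seen in 13 of 92, 28 of 169 and 68 of 196 members. At 7 days 1 cell held 338 of the 1573 Xcl1 UMIs, and without the richest cell of each library the log2 difference was 3.59. After thinning every member to 1000 UMIs, the shares with a UMI were 2.17%, 5.92% and 14.3%, against 0.670% of B cells of the 7-day library. Xcl1 was also highest at 7 days in conventional CD4 T cells (41.0, 46.2 and 167 CPM), but not in NK cells (1136, 1420 and 1099 CPM).

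Ifng (chromosome 10, 118441046 to 118445892) stood at 54.3, 33.2 and 503 CPM. A single cell of 9032 UMIs, with 5 Cd8a and 2 Cd8b1 UMIs and not of mixed lineage, held 488 of the 884 Ifng UMIs of the 7-day members. Without the richest cell of each library the log2 difference from PBS was 1.95 in place of 2.81. The thinned share of members with an Ifng UMI was 3.26% (0.678 to 9.23%) in PBS, 2.37% (0.649 to 5.95%) at 3 days and 13.8% (9.28 to 19.4%) at 7 days. Ifng was also highest at 7 days in conventional CD4 T cells (83.1, 127 and 314 CPM), but not in NK cells (241, 218 and 235 CPM). The 7-day value of CD8 T cells without their richest cell was 225 CPM.

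That same cell held 418 of 494 UMIs of Ccl3 and 850 of 1348 UMIs of Ccl4, both chemokine genes. Ccl3 stood at 50.7, 21.9 and 281 CPM and Ccl4 at 167, 136 and 767 CPM. Without the richest cell of each library the 7-day log2 differences from PBS were 0.37 for Ccl3 (2.09 with it) and 1.14 for Ccl4 (2.08 with it). Thinned shares for Ccl4 were 6.52%, 8.88% and 7.65% of members, against 2.34%, 3.16% and 3.85% of B cells. Ccl5, the most abundant chemokine transcript, stood at 8253 CPM in PBS, 4596 at 3 days and 4659 at 7 days, highest in PBS. Of the 6 effector cytokine and chemokine genes that passed the level filter (of 12 listed), 4 were at least 2-fold higher in 7-day WGP, against 1.07% of all genes compared, and none was lower. The list median was 2.08. The 4 genes were Xcl1, Ifng, Ccl3 and Ccl4, and the median lay between Ccl3 and Ccl4. The cell named above held most of the 7-day UMIs of Ifng, Ccl3 and Ccl4. Both the count and the median therefore lean on that cell, and Ccl3 was under 2-fold without the richest cell of each library. Tnf (14.5, 6.49 and 14.2 CPM) and Il2 (7.24, 4.87 and 6.83 CPM) were too low for the comparison.

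Cxcl10 was at 1.81 and 0.811 CPM in PBS and 3-day WGP, 1 UMI each, and at 156 CPM at 7 days, where 27 members held a UMI. The log2 ratio of UMI rates to PBS at 7 days, without a pseudocount, was 6.43 (3.94 to 11.7). A mixed-lineage member held 103 of the 274 UMIs. Without mixed-lineage members the 7-day log2 difference was 2.12 in place of 3.01. In 7-day WGP the CPM of Cxcl10 was 143 in conventional CD4 T cells, 70.1 in NK cells and 74.2 in B cells, and whether free RNA adds to the value in CD8 T cells was not tested.

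Genes for receptors shared with NK cells were also among the higher ones at 7 days. Klra7, an inhibitory Ly49 receptor for MHC class I, stood at 14.5, 43.0 and 156 CPM (log2 difference 2.36 at 7 days), and was seen in 3, 8 and 48 members. Fcer1g, a signalling adaptor, stood at 32.6, 149 and 175 CPM, and Tyrobp, another adaptor, at 29.0, 161 and 102 CPM. In B cells Fcer1g stood at 69.9, 120 and 229 CPM and Tyrobp at 153, 172 and 232 CPM, above CD8 T cells for Tyrobp in each library. Whether free RNA adds to the adaptor values in CD8 T cells was not tested. Klrc2, an NKG2 receptor chain, stood at 38.0, 30.8 and 99.0 CPM. Ifitm3, an interferon-induced membrane protein, stood at 12.7, 110.3 and 95.6 CPM, but its 7-day difference was 0.21 (log2) without mixed-lineage members. Klra7, Fcer1g, Tyrobp and Klrc2 were at least 2-fold higher, 4 of 8 NK receptor genes compared (12 listed), against 1.07% of all genes compared. The list median was 0.76, and Klrd1 (309.7, 272 and 411 CPM) and Klrk1 (161, 120.0 and 235 CPM) were not 2-fold higher. Reads of the closely related Klra and Klrc genes may be split or shared between them. In NK cells themselves Klra7 stood at 538, 468 and 494 CPM.

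Ikzf2 (chromosome 1, 69531214 to 69687245), which encodes the transcription factor Helios, stood at 86.9, 90.0 and 346 CPM. It was high in the 7-day library only, with a log2 difference of 1.77 there and 0.04 at 3 days. The thinned share of members with an Ikzf2 UMI was 4.35% (1.20 to 10.8%), 2.37% (0.649 to 5.95%) and 20.4% (15.0 to 26.7%). In the 3-day library 1 cell held 45.0% of its Ikzf2 UMIs, and in the 7-day library the richest cell held 4.11%. In conventional CD4 T cells the thinned shares were 10.9%, 6.71% and 16.0%. Other genes at least 2-fold higher in 7-day WGP were Serpina3g (29.0, 43.0 and 159 CPM), Serpinb9, an inhibitor of granzyme B (39.8, 46.2 and 173 CPM), Cd160, a receptor for HVEM (52.5, 56.8 and 185 CPM), Ctla4, an inhibitory receptor (19.9, 31.6 and 83.1 CPM), and Tnfrsf9, the costimulatory receptor 4-1BB (10.9, 9.73 and 73.4 CPM). Serpina3g was highest at 7 days in conventional CD4 T cells (38.7, 22.6 and 87.8 CPM), NK cells (270, 298 and 380 CPM) and B cells (68.4, 55.9 and 142 CPM) too. Il2rb, a receptor chain for IL-2 and IL-15, stood at 158, 163 and 353 CPM and Ly6a at 190.2, 181 and 452 CPM, though Ly6a was at −0.26 (log2) in Xist cells alone, the cells with Xist and no chromosome Y UMI. Among checkpoint genes, Ctla4, Cd160 and Tnfrsf9 made up the 3 of 7 compared (14 listed) that were higher, against 1.07% of all genes compared. A mixed-lineage member held 38 of the 129 Tnfrsf9 UMIs of the 7-day members. Pdcd1 was too low for the comparison (5.43, 26.8 and 29.0 CPM).

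**Figure D2:**
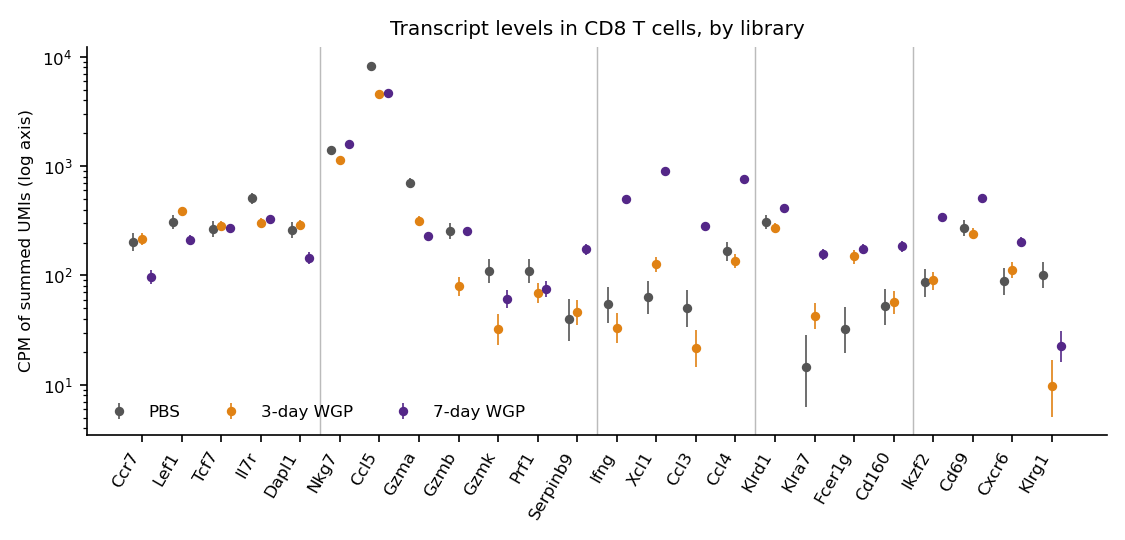
Levels of 24 transcripts in CD8 T cells of each library, as CPM of the summed UMIs on a log axis, with exact Poisson 95% intervals. Vertical lines separate naive, cytotoxic, effector, NK receptor and other genes, and Ifng (503 CPM), Xcl1 (895), Klra7 (156), Cd160 (185) and Ikzf2 (346) were highest in 7-day WGP.

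Interferon-stimulated genes were mostly above PBS at 7 days, by less than 2-fold. Of the 19 compared (22 listed), 18 lay above 0 and 3 were at least 2-fold higher: the guanylate-binding proteins Gbp2 (47.1, 43.0 and 148 CPM) and Gbp4 (59.8, 59.2 and 155 CPM), and the GTPase Igtp (79.7, 64.9 and 192 CPM). Of all 3939 genes compared, 2161 lay above 0 at 7 days and 1.07% were at least 2-fold higher. The list median was 0.52, beside 0.03 over all genes compared, and −0.09 in 3-day WGP with 4 of 19 above 0. At 7 days it was 0.11 in cells with Xist and no chromosome Y UMI and 0.75 in cells with a chromosome Y UMI and no Xist. The list summed to 3128, 2954 and 4260.5 CPM in CD8 T cells, 4508, 3410.2 and 5618 in conventional CD4 T cells, 2359, 2218 and 3088 in NK cells and 2282, 1939.5 and 2815 in B cells, highest at 7 days in each.

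Genes of naive and recirculating T cells showed no member at least 2-fold higher or lower at 7 days among 12 compared, with a median of −0.37 and 4 of 12 above 0. The median was 0.31 in cells with Xist and no chromosome Y UMI and −0.87 in cells with a chromosome Y UMI and no Xist, so its direction turned between them. Satb1, a chromatin organiser, was among those above 0 (304, 374 and 389 CPM). Ccr7, which guides cells to lymph nodes, stood at 203 CPM in PBS, 217 at 3 days and 97.3 at 7 days. S1pr1, needed to leave lymph nodes, stood at 199, 189.7 and 100.1 CPM, and Dapl1 at 263, 291 and 146 CPM. For Lef1, a transcription factor of naive and memory T cells, the thinned shares were 29.3%, 33.7% and 25.5%, against 0.838 to 0.967% of B cells.

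Most members of every library carried a transcript of Nkg7, Ccl5, a granzyme or perforin, mainly Nkg7 or Ccl5. The thinned share with a UMI of Nkg7, Ccl5, Gzma, Gzmb, Gzmk or Prf1 was 78.3% (68.4 to 86.2%) in PBS, 72.2% (64.8 to 78.8%) at 3 days and 82.7% (76.6 to 87.7%) at 7 days. B cells, with median depths of 4121, 6087.5 and 5627 UMIs, gave 1.42%, 3.07% and 4.02%. The intervals of the 3 CD8 T cell values overlapped. Alone, Nkg7 was seen in 63.0%, 59.2% and 65.8% and Ccl5 in 58.7%, 47.3% and 66.3% of thinned members, while Gzma, Gzmb, Gzmk and Prf1 were each seen in 4.59 to 13.0%. Gzma, which encodes granzyme A, stood at 708 CPM in PBS, 315 at 3 days and 228 at 7 days, and was seen in 15, 23 and 38 members. It was highest in PBS, at log2 differences of −1.12 and −1.56. Klrg1, a receptor of terminally differentiated effector cells, stood at 101 CPM in PBS (76.6 to 132), 9.73 at 3 days (5.03 to 17.0) and 22.8 at 7 days (16.3 to 31.0). Fosb, an immediate early gene, stood at 172, 53.5 and 36.4 CPM, and in the same order at 238, 60.5 and 60.1 CPM in conventional CD4 T cells, 270.1, 152 and 100.4 in NK cells and 198, 153 and 114 in B cells, highest in PBS in each.

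At 3 days, 18 genes (0.457%) were at least 2-fold higher than in PBS and 16 (0.406%) at least 2-fold lower. Of the 12 cytotoxic granule genes, 4 were lower (Gzma, Gzmb, Gzmk and Gzmm) and none higher, with a list median of −0.37 beside −0.03 for all genes. Gzmb, which encodes granzyme B, stood at 255, 79.5 and 254 CPM, low at 3 days only. Gzmk stood at 110.5, 32.4 and 61.4 CPM and Gzmm at 103, 41.4 and 47.8 CPM. Perforin, Prf1, stood at 110.5, 69.7 and 75.7 CPM, inside the 2-fold limits.

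The 3-day granzyme values differed between cells with Xist UMIs and cells with chromosome Y UMIs. Cells with Xist and no Y UMI numbered 32, 58 and 76, and cells with Y and no Xist UMI 30, 66 and 85. Gzma in the Xist cells was at 898, 4.31 and 219 CPM and in the Y cells at 302, 373 and 182 CPM. In the Y cells alone Gzma, Gzmb and Gzmk were above PBS at 3 days, by 0.29, 0.46 and 0.62 (log2), and Klrg1 was at 0.065 at 7 days. Ccl5 was at 8974, 1057 and 3928 CPM in the Xist cells and at 7747, 7039 and 4737 CPM in the Y cells. After thinning, a Ccl5 UMI was seen in 65.6%, 17.2% and 47.4% of Xist cells and in 63.3%, 66.7% and 84.7% of Y cells. For Ccl5 the 3-day Xist cells stood below the other 5 sets of cells, and Lef1 was seen in 51.7% of them against 24.2% of Y cells. The number of animals behind each sex-linked set is not given, and animal and sex cannot be told apart here. At 7 days Xcl1 was 3.73 (log2) above PBS in the Xist cells and 2.73 in the Y cells, Klra7 2.09 and 2.42, Ikzf2 2.05 and 1.52, Ifng 1.67 and 1.80 and Cd160 1.37 and 1.29.

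Histone and replication genes at 3 days rested on very few PBS cells. Hist1h1b, a linker histone, stood at 308, 34.1 and 149 CPM, and only 5 PBS members held it, 1 of them with 52.4% of the UMIs. Pclaf, a replication factor, stood at 176, 57.6 and 164 CPM and was seen in 3, 8 and 24 members. Among members of at most 10000 UMIs both were above PBS at 3 days, by 0.53 and 0.88 (log2). Of the 16 cell cycle genes 1 was at least 2-fold lower at 3 days, against 0.406% of all genes compared, and none was beyond 2-fold at 7 days. The share of thinned members with Mki67 was 3.26% (0.678 to 9.23%), 1.78% (0.368 to 5.10%) and 7.14% (3.96 to 11.7%). In B cells it was 1.07%, 4.74% and 1.01%. Histone genes of this cluster are nearly identical, and their UMIs may be divided between copies.

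Genes of other lineages led the higher genes at 3 days. S100a8 (3.62, 123 and 3.41 CPM) and S100a9 (10.9, 145 and 2.84 CPM), proteins of neutrophils and monocytes, Cd74 (313, 1132 and 174 CPM) and the MHC class II genes H2-Aa and H2-Ab1 were among the 10 largest. Without the mixed-lineage members, 5 genes in place of 18 were at least 2-fold higher, S100a8 was 0.10 above PBS (log2) and S100a9 0.16 below, while Tyrobp stayed 1.51 and Fcer1g 1.17 above. S100a8, S100a9, Cd74, Cst3 and the MHC class II genes were among the genes that chose these members. Leaving the members out lowers these genes by construction, so their values without them are a description and test nothing. The B cell list summed to 1284, 4033 and 640.1 CPM in the members and the myeloid list to 811, 2216 and 380.1 CPM, with 2, 0 and 1 of 10 B cell genes and 1, 0 and 0 of 10 myeloid genes at 0. The acinar genes summed to 163, 247 and 90.5 CPM. In PBS 1 cell held 95.4% of the Cd74 UMIs. Cd74, H2-Aa, H2-Ab1, H2-Eb1 and Cst3 were below PBS at 7 days in the summed members. Without mixed-lineage members each was above PBS, by 0.12 to 0.85 (log2). These genes chose those members, so this too is a description, and the cause of the lower values was not tested.

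**Figure D3:**
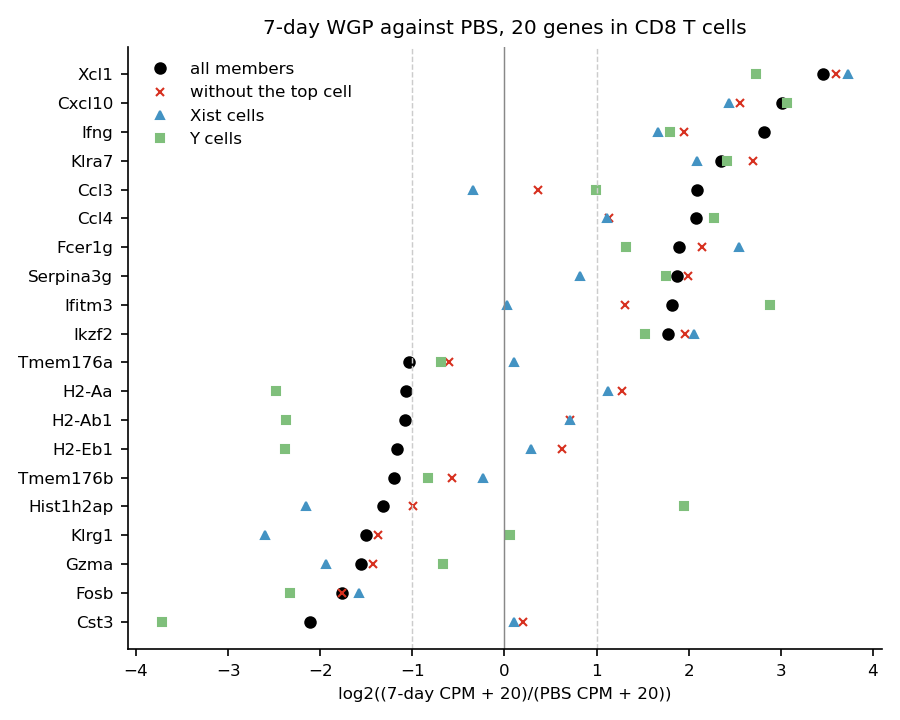
Log2 ratio of 7-day WGP to PBS (20 CPM added to each) for the 10 genes furthest above and the 10 furthest below PBS in CD8 T cells. Black circles are all members, red crosses leave out the cell with the most UMIs of the gene in each library, blue triangles are Xist cells and green squares Y cells, and the dashed lines mark 2-fold: Xcl1, Cxcl10, Ifng and Klra7 were above 1 in all 4, while Ccl3 was at 0.37 without its richest cell.

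In tissue residence, Cxcr6, a receptor for the chemokine CXCL16, stood at 88.7, 112 and 203 CPM and Cd69, which holds cells in tissue, at 272, 240.0 and 509 CPM. Cxcr6 was the 1 of 5 genes compared (11 listed) that was at least 2-fold higher at 7 days, against 1.07% of all genes compared. The list median was 0.77, but in Xist cells alone Cxcr6 was at −0.16 (log2). Itgae, the integrin chain CD103, averaged under 30 CPM and stood at 5.43, 39.7 and 10.8 CPM, in 3, 38 and 13 members. Thinned members with a UMI of Itgae, Itga1 or Cxcr6 made up 10.9% (5.34 to 19.1%), 11.8% (7.38 to 17.7%) and 17.9% (12.8 to 23.9%), with 0.865%, 0.439% and 0.503% of B cells.

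Members without a Cd8b1 UMI were concentrated in the 7-day library. They numbered 0 of 92 in PBS (which allows a share of up to 3.26% by a floor of 3 cells, and up to 3.93% by the exact interval), 3 of 169 at 3 days (1.78%, 0.368 to 5.10%) and 37 of 196 at 7 days (18.9%, 13.7 to 25.1%). In these 37 the median was 3 Cd8a UMIs and 9009 UMIs in all, while the other 159 held a median of 6 Cd8b1 and 7237 UMIs. Of the 37, 10 were Xist cells and 23 Y cells. The split uses a gene of the rule, so what follows describes these cells and tests nothing.

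Ikzf2 stood at 936 CPM in the 37 cells and at 177 CPM in the 159, and 70.3% (53.0 to 84.1%) against 8.81% (4.90 to 14.3%) of thinned cells held a UMI. Xcl1 stood at 1308 and 776 CPM and was seen in 43.2% (27.1 to 60.5%) and 7.55% (3.96 to 12.8%) of thinned cells. Klra7 (365 and 96.7 CPM), Klra1 (161 and 31.5), Klre1 (286 and 85.0), Fcer1g (329 and 131), Cd160 (339 and 141) and Cd69 (971 and 376) were also higher in the cells without Cd8b1. Cxcl10 stood at 464 and 67.4 CPM, with 37.6% of the library's UMIs in 1 mixed-lineage cell that had no Cd8b1. The opposite held for Ccr7 (7.65 and 123 CPM), Dapl1 (33.1 and 178), Gzma (81.6 and 269.5), Gzmb (48.4 and 313) and S100a4 (48.4 and 423). Ccl5 differed little in level, at 4668 and 4656 CPM, and was seen in 91.9% and 60.4% of thinned cells. Without these cells, 7-day WGP kept log2 differences from PBS of 3.26 for Xcl1, 0.88 for Ikzf2 and 1.76 for Klra7, so Ikzf2 was then under 2-fold. Of the 1060 Xcl1 UMIs in the 159 cells, 338 were in 1 cell. The thinned Xcl1 share of the 159 cells, 7.55% (3.96 to 12.8%), overlapped that of PBS, 2.17% (0.264 to 7.63%).

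**Figure D4:**
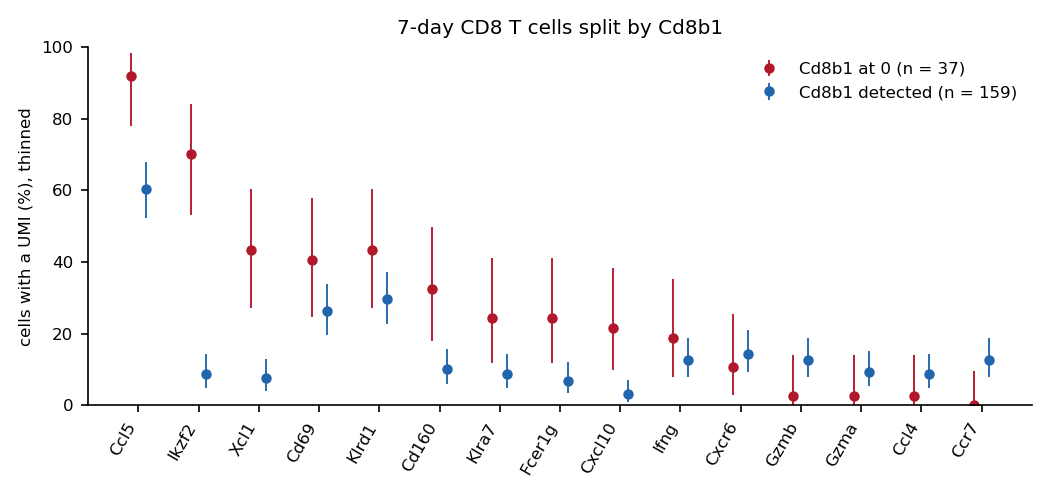
Percentage of 7-day CD8 T cells with a UMI of each gene after thinning to 1000 UMIs, for the 37 members without a Cd8b1 UMI (red) and the 159 with one (blue), with exact binomial 95% intervals. Ikzf2 (70.3% and 8.81%) and Xcl1 (43.2% and 7.55%) were further apart than their intervals. Shares for Gzmb, Gzma and Ccr7 were lower in the cells without Cd8b1, but their intervals overlapped.

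Conventional CD4 T cells and NK cells of the same libraries allowed a test, because each library gave a sum of both cell types. UMIs were summed per library and type and compared by the edgeR quasi-likelihood test with the library as a block, without the gate genes, and p-values were adjusted by Benjamini and Hochberg over all genes tested. The 3 libraries are of 3 treatments, so the test asks for a mean difference over them. A gene called this way need not differ in each library. Against CD4 T cells, 245 of 7502 genes (3.27%) were higher and 191 (2.55%) lower in CD8 T cells at an adjusted p under 0.05. With 1 library left out, 156 genes were higher without 7-day WGP, and 106, 342 and 76 were lower without PBS, 3-day WGP and 7-day WGP.

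Of the 12 cytotoxic granule genes, 8 were higher than in CD4 T cells and 1, Srgn, lower, against 3.27% and 2.55% of all genes tested. Gzma stood at 708, 315 and 228 CPM in CD8 and at 12.5, 16.4 and 3.82 CPM in CD4 T cells, a log2 difference of 5.31 ± 0.23 (SE, edgeR adjusted p = 1.49e-07). Nkg7, a granule membrane protein, was higher by 2.01 ± 0.08 and Prf1 by 2.98 ± 0.27. Among the effector genes Ccl5 (2.63 ± 0.05), Ccl4 (5.08 ± 0.40), Ccl3 (4.51 ± 0.61) and Xcl1 (1.93 ± 0.24) were higher and Il2, Tnf and Csf2 lower, by 1.65, 1.17 and 1.76 in log2. Ccl3 missed the threshold under DESeq2 (adjusted p = 0.0940), and was at 2.40 without 7-day WGP, where 1 cell held 84.6% of its UMIs, and at 6.67 without PBS. All 6 called of 9 NK receptor genes tested were higher, among them Klra7 (3.92 ± 0.49) and Klre1 (3.17 ± 0.30), but Klra7 missed the threshold under DESeq2 (adjusted p = 0.0676) and was at 2.40 without 7-day WGP. Eomes, a transcription factor of cytotoxic and memory cells, was higher by 3.28 ± 0.32, Ly6c2 by 2.32 ± 0.10, Cd160 by 2.62 ± 0.20 and the gut homing receptor Ccr9 by 2.68 ± 0.33. Wdr95 was seen only in CD8 T cells, with 97 UMIs, at least 26.5-fold above the floor of 3 UMIs over the CD4 libraries. Dapl1 was higher (1.08 ± 0.15) and Igfbp4 lower (−1.46 ± 0.13).

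Genes lower in CD8 than in CD4 T cells included helper genes. Cd40lg, which activates B cells and dendritic cells, stood at 1.81, 3.24 and 1.71 CPM in CD8 and 58.1, 79.0 and 108 CPM in CD4 T cells, a log2 difference of −5.12 ± 0.31. Zbtb7b, the factor ThPOK that sets the CD4 lineage, was lower by 2.81 in log2 and Maf by 3.67. Ccr4 (−5.53 ± 0.78), Tnfrsf4, which encodes OX40 (−3.22 ± 0.39), Icos (−1.17 ± 0.12), Ctla4 (−1.35 ± 0.16) and Cd5 (−1.03 ± 0.13) were lower too. St8sia6 had no UMI in CD8 T cells and 49 in CD4 T cells, at least 19.9-fold lower against a floor of 3 UMIs over the CD8 libraries. Tnfrsf4 was at 0, 0.811 and 54.1 CPM in CD8 T cells, high in the 7-day library alone, and missed the threshold without the library block (edgeR adjusted p = 0.113). Of 18 immediate early and heat shock genes 8 were lower, against 2.55% of all genes tested, and none was higher. Junb (−0.93 ± 0.11) and Dusp1 (−0.84 ± 0.14) were among the 8 lower.

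Against NK cells, 656 of 8366 genes (7.84%) were higher and 673 (8.04%) lower in CD8 T cells, and without 3-day WGP 408 were higher and 408 lower. T cell receptor and signalling genes were higher in 11 of 14 cases and lower in none. CD8 T cells were gated on Cd3 UMIs, and NK cells on Ncr1 and Klrb1c UMIs without any Cd3 UMI. Leaving the gate genes out does not undo this choice. The directions of the T cell receptor genes and of the NK receptor genes below are thus partly set by the gates. Cd5 and Cd6, surface molecules that tune receptor signalling, had 308 and 267 UMIs in CD8 T cells and none in NK cells, at least 120.4-fold and 104-fold above a floor of 3 UMIs over the NK libraries. Naive genes were higher in 9 of 12 cases and lower in 1, and those higher included Dapl1 (9.49 ± 0.31), Ccr7 (3.62 ± 0.36), Il7r (2.25 ± 0.16) and Lef1 (2.27 ± 0.24). Dapl1 had 760 UMIs in CD8 T cells and 1 in NK cells, under the floor of 3, so the size of its fitted difference is uncertain. Interferon-stimulated genes were higher in 14 of 22 cases and lower in none, led by Ifi27l2a (4.35 ± 0.15). Cytotoxic genes were lower in 8 of 12 cases, with Gzma at −3.80 ± 0.28 and Prf1 at −2.89 ± 0.17, and higher for Gzmk (2.68 ± 0.31) and Gzmm (2.16 ± 0.29). All 8 called of 9 NK receptor genes were lower, among them Klra7 (−2.73 ± 0.39), Fcer1g (−4.09 ± 0.31) and Tyrobp (−4.61 ± 0.29). Klra8, an activating Ly49 receptor, stood at 0, 1.62 and 0 CPM in CD8 T cells and at 676, 362 and 439.8 CPM in NK cells.

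**Figure D5:**
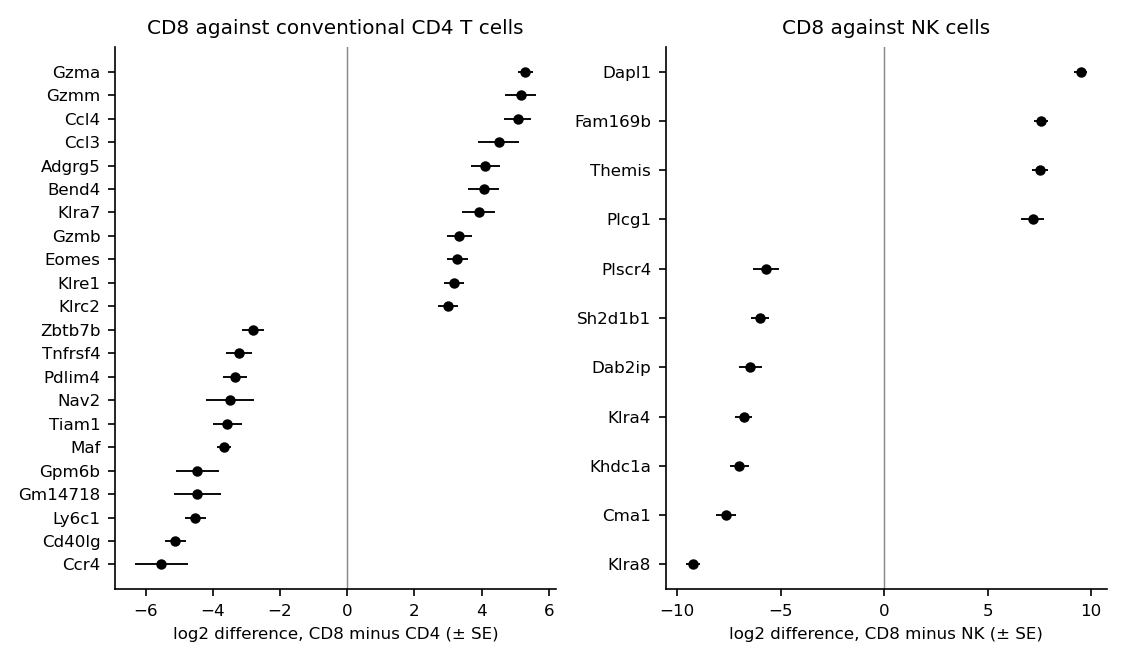
Log2 difference between CD8 T cells and conventional CD4 T cells (left) or NK cells (right), with standard errors from edgeR over 3 libraries, for the 12 genes furthest apart each way. Genes with no UMI in 1 of the cell types are left out because a fitted difference has no meaning there, and Gzma (5.31) and Dapl1 (9.49) were highest. Dapl1 had 1 UMI in NK cells, so the size of its fitted difference is uncertain.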

How the data were processed

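Live CD45+ pancreas cells of 3 groups, 1 library each, were measured by single-cell RNA sequencing. The authors deposited raw UMI counts per gene and barcode, which per the labels came from Cell Ranger 3.1.0 with the mouse build mm10, and no cell annotation was used. Barcodes with at least 1000 UMIs and at most 30% mitochondrial UMIs were kept, and the mitochondrial limit removed 440, 206 and 347 barcodes. Total counts were 52464690, 56849043 and 48219246 for PBS, 3-day WGP and 7-day WGP. Members were found by the transcript rule of the report, and their UMIs were summed per library.

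Levels were CPM with exact Poisson intervals, and shares had exact binomial (Clopper-Pearson) intervals, both at 95%. Cells were thinned to 1000 UMIs without replacement for shares. With 1 library per group no p-value was computed between groups. CD8 T cells were compared with conventional CD4 T cells and NK cells by edgeR 4.0.16 (R 4.3.3) with TMM scaling and the library as a block, and DESeq2 1.42.0 was an alternative. On simulated counts the CD4 comparison recovered 47 of 100 genes changed 2-fold and 99 of 100 changed 4-fold, among 7458 genes. Genes named were, at each time, the 10 furthest above and the 10 furthest below PBS among genes averaging at least 30 CPM whose counting interval excluded equality (sex-linked, immunoglobulin, haemoglobin and acinar genes left out), the 12 highest and 12 lowest called genes with the same sign in all libraries in each cell type comparison, and members of gene lists. A few others (such as the genes of the Cd8b1 split) were chosen after their values were seen. Members and lists were chosen with earlier results of these data known. Alternative filters, pseudocounts, cell subsets and left-out libraries were tried. No doublet caller was run. A few genes and the results that need them are not reported here.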

Additional observations from a re-analysis of the deposited data

Results flagged for a closer look

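Several genes of the CD8 T cells moved in opposite directions against PBS in Xist cells and in Y cells, and none of these differences was tested, since each library held 1 set of each. At 3 days the log2 difference from PBS was larger in Y than in Xist cells by 6.61 for Ccl4 (70 to 4 UMIs in Xist and 1 to 127 in Y cells), 4.24 for Ccl3 and 2.46 for Xcl1. Replication genes were also split at 3 days, by 7.01 for Pclaf (97 to 0 UMIs in Xist and 0 to 59 in Y cells), 6.55 for Hist1h1b and 5.002 for Hist1h2ap. At 7 days the Y cells were further above PBS by 5.18 for Hist1h1b, 4.55 for Pclaf, 4.39 for Hist1h2ae, 4.11 for Hist1h2ap and 3.53 for Gzmk. For H2-Aa the order was the other way, at −3.60, with 119 PBS UMIs in Y and 3 in Xist cells.

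Genes of antigen-presenting cells were above PBS at 3 days and below it at 7 days in the summed members. The 7-day minus the 3-day log2 difference was −3.30 for Cst3, −2.62 for H2-Ab1, −2.51 for H2-Aa and −2.40 for H2-Eb1. Without mixed-lineage members all 4 were above PBS at 7 days (0.12 for Cst3, 0.41 for H2-Ab1, 0.85 for H2-Aa and 0.67 for H2-Eb1), and at 3 days the values were −0.48, −0.11, 0.11 and 0.25 in the same order. All 4 are among the genes that chose the mixed-lineage members, so the values without these members test nothing. Both times were set against the same PBS library, and the difference was not tested.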

How the results depend on the processing

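With 1 library per group, depth and the few cells behind a gene limit what can be seen, and intervals cover counting error only. A pseudocount of 5 CPM gave 34 genes higher and 40 lower at 3 days and 69 and 28 at 7 days, and no filter on low values gave 38 higher at 3 days. Members of at most 10000 UMIs gave 9 lower at 3 days. Xist cells alone gave 56 higher and 151 lower at 3 days and 44 lower at 7 days, and Y cells alone 143 and 71 at 3 days and 221 and 81 at 7 days. Without mixed-lineage members (chosen after seeing the data, like the left-out richest cells) 5 were higher at 3 days and 7 lower at 7 days. Requiring a Cd8b1 UMI gave a 7-day share of 3.81%. Without thinning, the PBS, 3-day and 7-day shares were 92.4%, 93.5% and 98.0% for the cytotoxic set and 31.5%, 55.0% and 54.1% for the residence set.

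Against CD4 T cells, DESeq2 called 141 genes higher and 57 lower, no filter on low counts 371 and 354, and the fit with no replicate block, here no library block, 84 and 66. Leaving out 1 library gave 156 to 333 higher and 76 to 342 lower. Against NK cells DESeq2 called 345 and 321, and leaving out 1 library gave 408 to 629 higher and 408 to 609 lower. Ccl3, Klra7 and Nav2 missed the threshold under DESeq2 (adjusted p = 0.0940, 0.0676 and 0.0551), Nav2 also without PBS (edgeR adjusted p = 0.0712), and Tnfrsf4 without the library block (edgeR adjusted p = 0.113). No paired analysis of WGP against PBS was possible because each group was 1 library.

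Direction turned for some genes, and the cause was not tested. At 3 days the log2 difference in Xist cells was −0.46 for Cst3 and −0.22 for H2-Eb1. In Y cells it was 0.29 for Gzma, 0.46 for Gzmb, 0.62 for Gzmk, 1.90 for Hist1h1b, 1.42 for Hist1h2ap, −0.23 for Igfbp4, 2.85 for Pclaf and 0.53 for Rrm2. At most 10000 UMIs it was 0.53 for Hist1h1b, 0.38 for Hist1h2ap and 0.88 for Pclaf, and without mixed-lineage members −0.48 for Cst3, −0.11 for H2-Ab1 and −0.16 for S100a9. At 7 days Xist cells gave −0.34 for Ccl3, 0.11 for Cst3, −0.16 for Cxcr6, 1.13 for H2-Aa, 0.72 for H2-Ab1, 0.29 for H2-Eb1, −0.26 for Ly6a and 0.10 for Tmem176a, and Y cells 1.95 for Hist1h2ap and 0.065 for Klrg1. At most 10000 UMIs gave 0.35 for Cst3, 1.37 for H2-Aa, 0.40 for H2-Ab1, 0.64 for H2-Eb1 and −0.050 for Ifitm3. Without mixed-lineage members Cst3 was at 0.12, H2-Aa at 0.85, H2-Ab1 at 0.41 and H2-Eb1 at 0.67, and without the richest cell at 0.21, 1.28, 0.71 and 0.62. Cst3, S100a9 and the class II genes are among the genes that chose the mixed-lineage members, so their values without these members test nothing.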
